A study of Mus musculus with 8 samples.

Results

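Chromatin accessibility around 10 genes of the bone morphogenetic protein (BMP) pathway was examined in granule neuron progenitors (GNPs) of the mouse cerebellum. The genes were the ligands Bmp2, Bmp4, Bmp5, Bmp6 and Bmp7, the receptors Bmpr1a, Bmpr1b and Bmpr2, and the signal transducers Smad1 and Smad5. Every ATAC-seq peak within a gene body or within 50 kb of either end was taken, and peaks of the 3 genotypes that lay within 300 bp of each other were joined into 1 region. This gave 212 regions of the 190582 in the genome, built from 170 wild-type (WT), 116 heterozygous (het) and 198 mutant peaks. Windows of different genes shared 0 regions.

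ATAC-seq maps open DNA by the insertion of sequencing adapters with the Tn5 transposase. GNPs were freshly isolated at postnatal day 7 (P7) from cerebella labelled as strain C56Bl6/J, without treatment, as 3 WT, 2 het and 3 mutant libraries. In the study, WT mice were Chd7 f/f, het mice Atoh1-Cre::Chd7 f/+ and mutant mice Atoh1-Cre::Chd7 f/f. Chd7, a chromatin remodeller, therefore carried at least 1 floxed allele in every group, and the Cre transgene, driven by Atoh1 regulatory sequence in the granule lineage, was absent from WT. Some Chd7 protein remained in the posterior lobe, which the study puts down to probably less efficient recombination there. The study calls its WT and mutant replicates technical, and pups were not separated by sex.

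Each deposited list pooled the libraries of its genotype, so every genotype is 1 sample, no difference between genotypes has a replicate check and no test was run. Depth after filtering was 50394313 tags (WT), 51030229 tags (mutant) and 30923002 tags (het). Intervals are 95% intervals that cover counting error only. Chd7 itself had a start-site peak in every list, at within-list ranks of 75.5 (WT), 74.7 (het) and 83.5 (mutant), which does not check the deletion of its floxed part. A within-list rank is the percentage of peaks in a list whose −log10 q is at or below that of the peak. The GNP marker list had a start-site peak for 7 of 7 genes in all 3 genotypes. In WT these GNP peaks ranked from 75.3 to 91.9, and in mutant from 63.6 to 93.8. Markers of other cerebellar cells had start-site peaks too. In WT these were present for 2 of 3 Purkinje cell markers (ranks 82.8 to 89.1, Pcp2 without a peak), 3 of 3 oligodendrocyte lineage markers (64.0 to 80.6), 3 of 3 astrocyte and Bergmann glia markers (44.5 to 57.5), 2 of 2 interneuron progenitor markers (29.4 to 42.3), 2 of 2 endothelial markers (11.9 to 54.9) and 1 of 3 microglial markers (Csf1r, 43.2). In mutant the same markers had peaks, at 89.9 to 90.1, 60.3 to 83.6, 59.4 to 79.1, 9.77 to 48.9, 50.5 to 53.8 and 51.0 in that order, and the microglial genes Cx3cr1 and Aif1 had none in any list.

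BMPs are secreted ligands of the TGF-β family. They bind complexes of type I receptors, such as Bmpr1a and Bmpr1b, with the type II receptor Bmpr2, and the activated type I receptor phosphorylates Smad1 and Smad5, which then act on target genes in the nucleus. In the cerebellum, BMPs of the roof plate induce Atoh1 in the rhombic lip, and later BMP signals oppose the proliferative effect of Sonic hedgehog on GNPs.

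Among the 10 genes the clearest difference between WT and mutant lay at the 5′ end of Bmp5. In the first 12.1 kb of that gene, from its start site into intron 1, all 4 regions with a WT peak were either without a mutant peak (2 regions) or at least 1.5 times lower in mutant (2 regions). Of the 20 WT regions in the remainder of the Bmp5 window, 3 had no mutant peak, and none of the 17 shared ones was 1.5 times lower. Over the whole window 5 of 24 WT regions had no mutant peak, or 20.8% (9.24 to 40.5), close to the 20.4% of all WT regions in the genome, and 2 of 19 shared regions were lower, or 10.5% (2.94 to 31.4), where 3.61% of all shared regions were. Bmp5 was singled out by the study from these libraries and from its expression, and the boundary of this stretch was drawn after the values were seen, so the pattern is not independent evidence. In chromatin from many cells, a site open in fewer cells and a site less open in each cell cannot be told apart.

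Of those 4 regions, 3 are shown as sequence because the difference at Bmp5 rests on them; the fourth, at chr9:75775438-75775577, lies in the 5′ untranslated region. A region elsewhere that was lower in mutant and 1 that was higher are shown for comparison. Windows are of mm10 (GRCm38), centred near the summit, on the plus strand. Capitals mark matches, on either strand, to the motifs searched: CAGATG and CAGCTG (E-boxes of proneural factors), GGCGCC (bound by Smad1 and Smad5 complexes), TTGGCA (a nuclear factor I site), CAGCAGG (Zic), ACCACCC (Gli) and TGANTCA (AP-1).
Bmp5 exon 1, no mutant peak, chr9:75776238-75776537: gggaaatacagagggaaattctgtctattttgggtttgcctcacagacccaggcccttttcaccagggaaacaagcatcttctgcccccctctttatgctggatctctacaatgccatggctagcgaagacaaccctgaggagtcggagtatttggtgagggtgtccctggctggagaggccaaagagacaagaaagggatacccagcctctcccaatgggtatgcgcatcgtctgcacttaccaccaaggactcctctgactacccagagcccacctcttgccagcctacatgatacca
Bmp5 intron 1, proximal, lower in mutant, chr9:75778844-75779143: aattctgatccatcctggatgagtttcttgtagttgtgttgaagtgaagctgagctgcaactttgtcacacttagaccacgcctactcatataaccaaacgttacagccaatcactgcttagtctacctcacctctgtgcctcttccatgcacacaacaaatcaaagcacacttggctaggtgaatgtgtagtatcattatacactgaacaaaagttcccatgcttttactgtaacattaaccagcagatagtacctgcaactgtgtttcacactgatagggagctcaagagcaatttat
Bmp5 intron 1, distal, lower in mutant, chr9:75787212-75787511: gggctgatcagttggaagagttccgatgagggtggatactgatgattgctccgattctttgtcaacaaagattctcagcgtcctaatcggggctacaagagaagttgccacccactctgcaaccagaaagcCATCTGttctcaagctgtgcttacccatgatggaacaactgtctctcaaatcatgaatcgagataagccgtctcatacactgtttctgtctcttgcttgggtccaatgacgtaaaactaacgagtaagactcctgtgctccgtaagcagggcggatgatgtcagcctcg
Unc5c intron in the Bmpr1b window, lower in mutant, chr3:141797860-141798159: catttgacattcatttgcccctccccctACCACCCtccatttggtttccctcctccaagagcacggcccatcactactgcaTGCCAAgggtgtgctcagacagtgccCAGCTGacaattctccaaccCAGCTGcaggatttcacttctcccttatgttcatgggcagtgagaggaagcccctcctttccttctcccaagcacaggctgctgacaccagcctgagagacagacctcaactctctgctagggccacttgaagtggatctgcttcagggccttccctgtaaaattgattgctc
Bmpr2 intron, higher in mutant, chr1:59833738-59834037: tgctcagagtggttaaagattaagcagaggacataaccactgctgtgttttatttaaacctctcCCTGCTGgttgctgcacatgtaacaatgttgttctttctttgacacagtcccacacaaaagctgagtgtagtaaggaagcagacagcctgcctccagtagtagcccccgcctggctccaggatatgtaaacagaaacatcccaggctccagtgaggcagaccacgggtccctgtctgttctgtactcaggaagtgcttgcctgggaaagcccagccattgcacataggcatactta

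The distal Bmp5 intron 1 sequence held 1 CAGATG E-box, read as CATCTG on this strand. The proximal intron 1 and exon 1 sequences held none of the 7 motifs. The CAGATG motif is common, being present in 34.4% of 190517 windows of the same length over the genome and in 7 of the 29 Bmp5 windows. The Unc5c sequence held 2 copies of CAGCTG (28.1% of all windows hold at least 1), 1 TTGGCA (27.5%) and 1 ACCACCC (4.23%), and the Bmpr2 sequence held 1 CAGCAGG (15.1%). The GC-rich Smad motif was present in 11 of the 212 BMP windows, or 5.19%, against 4.62% of all windows, and in none of the Bmp5 windows. AP-1 motifs were present in 9.43% of BMP windows and 9.35% of all windows. Median GC content was 49.3% in the BMP windows, as in the genome, and 44.3% in the 29 Bmp5 windows. Over the 10 genes the share with each motif thus lay close to that of all windows.

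Bmp5 (ENSMUSG00000032179.7, chr9:75775364-75900310, plus strand) encodes a secreted ligand. Its window held 29 regions, 18 of them in the gene body, of which 24 had a WT, 16 a het and 22 a mutant peak. The region over the start site was a small peak with a pileup, the number of extended tags over the summit, of 12 in WT, and neither het nor mutant had a peak there. The region in the coding part of exon 1 (chr9:75776219-75776556) had a pileup of 15 in WT and 15 in het and no peak in mutant. A missing peak shows only that the site did not pass the caller's threshold, and the lowest pileup of any mutant peak was 7. Het pileups, here and below, cannot be set against the others, since that list had a lower depth and other calling settings.

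The proximal intron 1 region (chr9:75778871-75779304), 3.63 kb from the start site, had a pileup of 20 in WT, 17 in het and 10 in mutant. Per 1000000 tags the WT height was 0.397 and the mutant height 0.196, a mutant to WT ratio of 0.49 (0.21 to 1.11). The interval of this ratio includes 1, so counting error alone could cover the difference. The distal intron 1 region (chr9:75787097-75787542), 12.0 kb from the start site, had a pileup of 32 in WT, 32 in het and 15 in mutant. Its heights were 0.635 and 0.294 per 1000000 tags, a ratio of 0.46 (0.23 to 0.88), whose interval excludes 1. Over the genome, 0.402% of shared regions were at least 2 times lower in mutant, as both of these regions were. They are the 2 that fell most of the 126 shared regions, so neither the interval nor this share is independent evidence.

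The height difference at Bmp5 stopped within intron 1. The next region, only 14.7 kb from the start site (chr9:75789746-75790326), was the highest of the gene body, with pileups of 54 (WT), 77 (het) and 48 (mutant), a ratio of 0.88 (0.58 to 1.32). One weak region inside the 5′ stretch, 6.18 kb from the start site, had a mutant peak with a pileup of 11 and no WT or het peak. The other 9 WT regions of the gene body had WT pileups from 8 to 22, and of these 8 were shared, while the region 28.0 kb from the start site, with a pileup of 12 in WT and 11 in het, had no mutant peak. A further 2 regions of the body, 33.3 and 96.7 kb from the start site, had a mutant peak alone, each with a pileup of 9, and 1 had a het peak alone. Outside the 5′ stretch the log2 height ratios of the 17 shared regions ran from -0.21 to 0.57, with a median of 0.05.

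The strongest region of the Bmp5 window lay 134.9 kb from the start site, beyond the end of the gene and within an intron of the transcript Gm26903 (chr9:75910069-75911128). Pileups were 91 (WT), 137 (het) and 95 (mutant), with ranks of 99.95, 99.7 and 99.9 in the same order. The mutant height was 1.03 (0.77 to 1.39) times that of WT. The site was thus among the strongest peaks of all 3 lists, with nearly equal heights in WT and mutant.

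**Figure D1:**
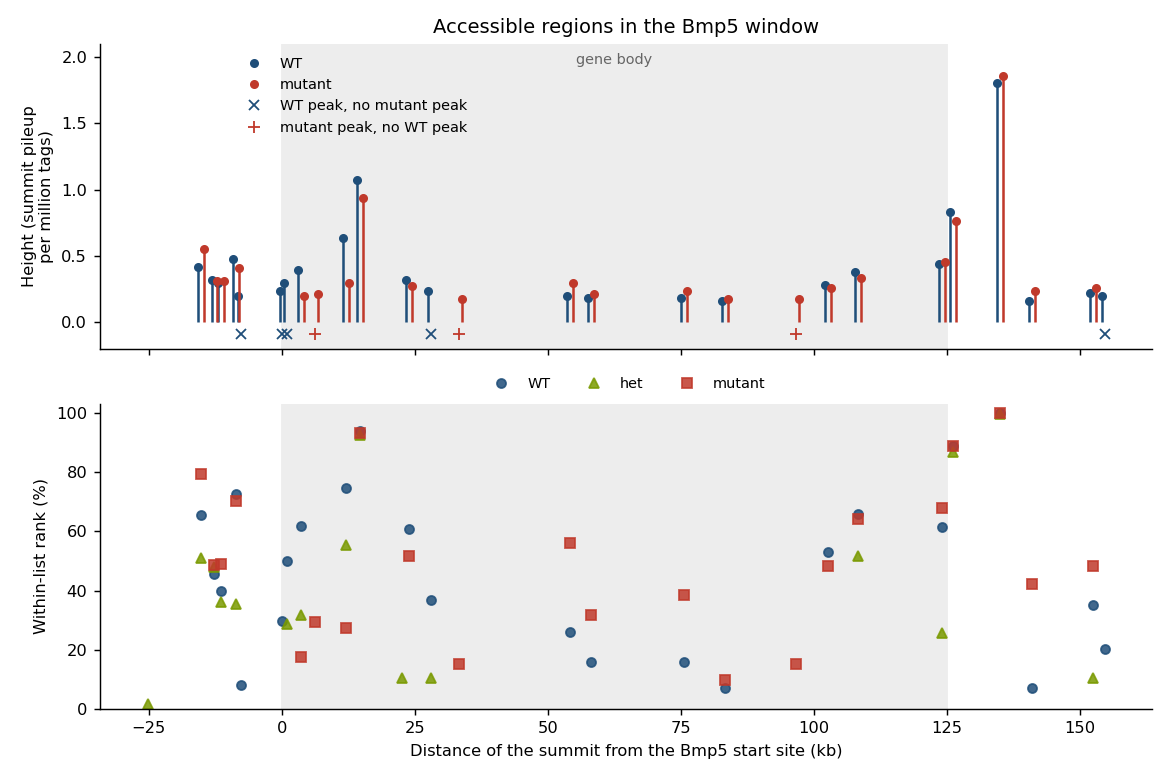
Regions of the Bmp5 window by distance of the summit from the start site in kb, with the gene body shaded. The upper panel gives heights per 1000000 tags for WT and mutant, drawn slightly to the left and right of each summit, with crosses for WT regions without a mutant peak and plus signs for the reverse; the lower panel gives within-list ranks for WT, het and mutant. The 4 WT regions between 0 and 12.1 kb have no mutant peak or a lower one, 3 WT regions elsewhere in the window also have no mutant peak, and the region at 134.9 kb has heights of 1.81 and 1.86.

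Het heights cannot be set against the others, because that list was called with other settings, so het was compared by the presence of a peak and by rank. Het peaks were present at 3 of the 4 WT regions of the 5′ stretch. The proximal intron 1 region ranked at 62.0 (WT), 31.7 (het) and 17.4 (mutant), and the distal one at 74.7, 55.4 and 27.4. By rank het lay between WT and mutant at both sites, but the lists differ in length, with 152984 WT, 106974 het and 174407 mutant peaks, and in calling settings, so ranks are not a measure of change. Het ranks were also lower at Bmp5 sites where WT and mutant ranked alike, as at chr9:75766567-75766878, 8.64 kb upstream, with 72.6 in WT, 35.4 in het and 70.4 in mutant. Over the 12 Bmp5 regions present in all 3 lists the median rank change from WT to het was -14.4, against -4.22 over the 87 such regions of the 10 genes and -7.01 over the genome. Het ranks below those of WT were therefore also found where WT and mutant ranked alike.

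Over all 10 genes, with all deposited peaks kept, shares of WT regions without a mutant peak, and the reverse, were near the genome values. With only peaks of −log10 q of 5 or more, mutant regions without a WT peak came to 31.7% (24.1 to 40.4), against 23.2% over the genome. Of 157 regions with a WT peak, 31 had no mutant peak, or 19.7% (14.3 to 26.7), where 20.4% of all WT regions had none. Of 173 regions with a mutant peak, 47 had no WT peak, or 27.2% (21.1 to 34.2), against 28.4% of all mutant regions. Of the 126 shared regions, 3 were at least 1.5 times lower in mutant, or 2.38% (0.813 to 6.77), and 6 at least 1.5 times higher, or 4.76% (2.20 to 10), where 3.61% and 7.48% of all shared regions were. Without the Bmp5 window the counts were 1 lower and 6 higher of 107. The median log2 ratio was 0.11 over the 126 regions and 0.07 over the 111314 shared regions of the genome.

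**Figure D2:**
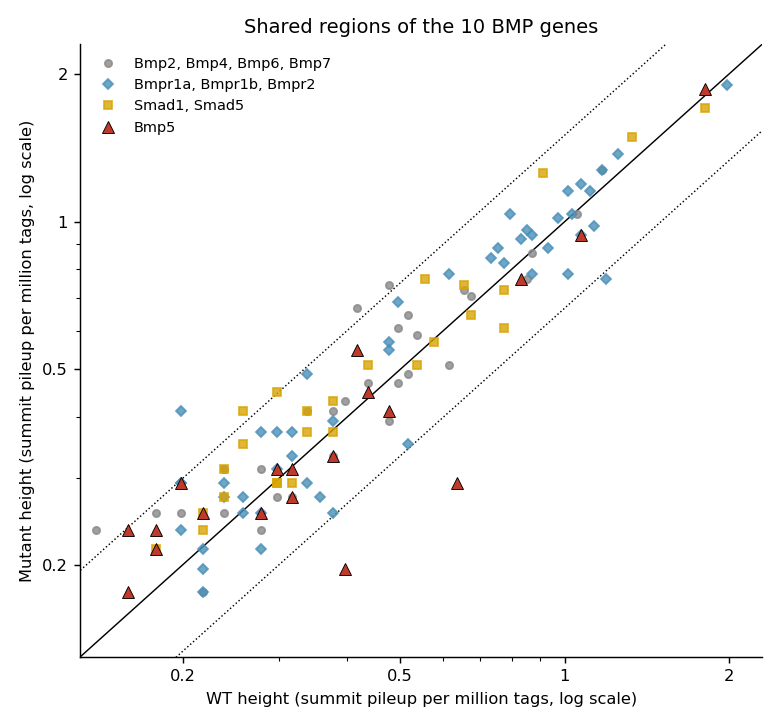
WT against mutant height, in summit pileup per 1000000 tags on log axes, for the 126 shared regions, with Bmp5 as red triangles, the other ligands grey, receptors blue and Smads yellow. The solid line marks equal heights and the dotted lines 1.5 times higher or lower; 3 regions lie below the lower line, and the 2 farthest from it are the Bmp5 intron 1 regions.

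By position, 23 of the 212 regions lay within 1 kb of a start site, 16 in exons, 104 in introns and 69 between genes. The intron share was 49.1%, against 40.3% of all regions, and the intergenic share 32.5%, against 43.6%. A window built on gene bodies takes in more introns than the genome at large. For 151 of the 212 regions the nearest start site was that of the listed gene, and the others lay nearer to another gene's.

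Among the ligands other than Bmp5, the start sites were open at similar heights in WT and mutant where both lists had a peak. Bmp2 (chr2:133552159-133562885, plus strand), a ligand known to act on granule neuron differentiation, had a start-site region with a pileup of 26 in WT, 40 in het and 33 in mutant, giving a ratio of 1.25 (0.73 to 2.18). Its window held 17 regions, of which 10 had a WT and 14 a mutant peak. Of the 14, 6 had no WT peak, a small count, where 28.4% of all mutant regions had none. One of the 6 (chr2:133522164, 29.8 kb upstream) had a pileup of 20 in mutant and 15 in het.

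Bmp4 (chr14:46383520-46390669, minus strand), a roof plate ligand, had 2 start-site regions. The one at the first start site had no WT peak, a het pileup of 27 and a mutant pileup of 17, but its mutant rank was only 8.46, among the weakest peaks of that list. The one at a downstream start site had a pileup of 34 in WT, 53 in het and 36 in mutant, with a ratio of 1.05 (0.64 to 1.72). Of its 7 shared regions 1 was at least 1.5 times higher in mutant, with a log2 ratio of 0.76, where 7.48% of all shared regions were higher. This region lay at the start site of the transcript Gm15221 (chr14:46436876), 46.2 kb upstream of the Bmp4 start site. Its pileup was 7 in WT and 12 in mutant, a ratio of 1.69 (0.61 to 5.08), whose interval includes 1.

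Bmp6 (chr13:38345107-38500302, plus strand), a ligand close in sequence to Bmp5 and Bmp7, had a start-site pileup of 43 in WT, 57 in het and 39 in mutant, a ratio of 0.90 (0.57 to 1.41). A second start site 1.38 kb into the gene had a peak in het, with a pileup of 32, and in mutant, with a pileup of 20, and none in WT. The Bmp6 window held 6.27 regions per 100 kb, against 12.9 in that of Bmp5 and 5.10 in that of Bmpr2. Across 21938 protein-coding genes the median was 8.11 (quartiles 4.91 and 11.0), so Bmp6 lay between the quartiles and Bmp5 above the upper one. The 6 shared regions of the Bmp6 window had a median log2 ratio of -0.05, the only median below 0 of the 10 genes. None of the 6 was 1.5 times higher or lower, where 7.48% and 3.61% of all shared regions were.

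Bmp7 (chr2:172868012-172940321, minus strand) had a start-site pileup of 27 in WT, 36 in het and 30 in mutant, a ratio of 1.10 (0.63 to 1.92). Of its 11 shared regions 2 were at least 1.5 times higher in mutant, where 7.48% of all shared regions were. An intronic one (chr2:172909490), 30.6 kb from the start site, went from a pileup of 24 in WT to 38 in mutant, a ratio of 1.56 (0.91 to 2.72), and 1 beyond the 3′ end (chr2:172831126) from 21 to 34, a ratio of 1.60 (0.90 to 2.90). Both intervals include 1. Of its 18 regions with a mutant peak, 7 had no WT peak, where 28.4% of all mutant regions had none. Each of these counts is small. The mutant region without a WT peak that had the highest −log10 q had a pileup of 21, at 6.40 kb from the start site.

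**Figure D3:**
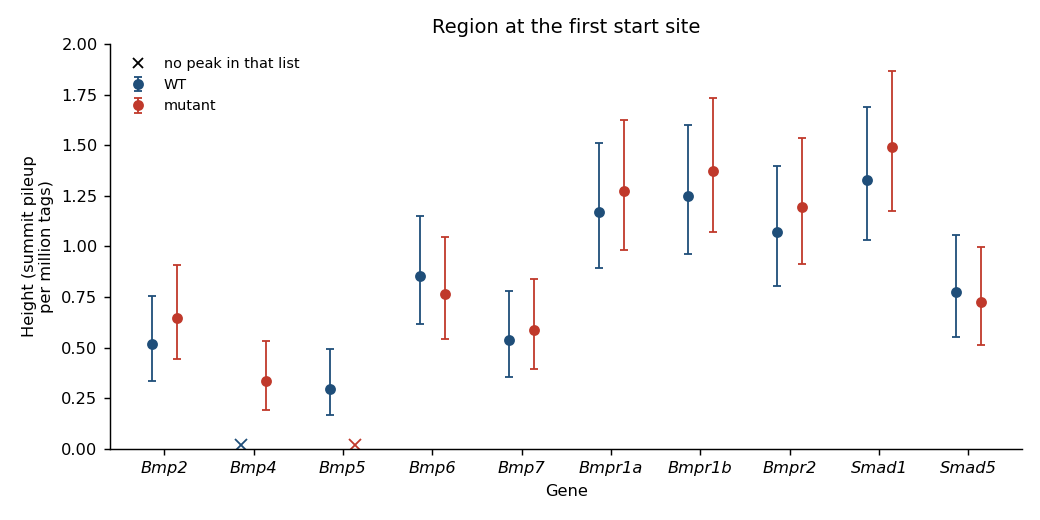
Height of the region at the first start site of each gene, in summit pileup per 1000000 tags, for WT and mutant with exact Poisson 95% counting intervals; a cross marks a list without a peak. Only Bmp5 (exon 1 region, 0.298 in WT) lacked a mutant peak and only Bmp4 (0.333 in mutant) lacked a WT peak, and in the other 8 genes the WT and mutant intervals overlap.

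The receptor genes had higher pileups at the first start site than the ligands. Bmpr1a (chr14:34410734-34503341, minus strand), a type I receptor, had a start-site pileup of 59 in WT, 94 in het and 65 in mutant, a ratio of 1.09 (0.75 to 1.57). At a start site inside the gene the pileups were 15 (WT), 20 (het) and 19 (mutant). The second type I receptor, Bmpr1b (chr3:141837136-142169425, minus strand), had 3 open start sites. Their pileups in WT, het and mutant were 63, 97 and 70 at the first, 43, 65 and 49 at the second, and 54, 76 and 48 at the third. The WT to mutant differences were small at each, with ratios of 1.10 (0.77 to 1.57), 1.13 (0.73 to 1.74) and 0.88 (0.58 to 1.32). Bmpr2 (chr1:59763400-59879014, plus strand), the type II receptor, had a start-site pileup of 54 in WT, 85 in het and 61 in mutant, a ratio of 1.12 (0.76 to 1.64).

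Over the 3 receptors, 11 of 60 WT regions had no mutant peak, or 18.3%, near the 20.4% of the genome. Of 49 shared regions 1 was at least 1.5 times lower in mutant and 1 at least 1.5 times higher, each 2.04%, where 3.61% and 7.48% of all shared regions were. The lower one lay in the Bmpr1b window but inside an intron of the neighbouring gene Unc5c, a netrin receptor gene (chr3:141797782-141798212), with a pileup of 60 in WT, 67 in het and 39 in mutant. Its ratio was 0.64 (0.42 to 0.98), and its rank was 94.8 (WT), 86.4 (het) and 83.4 (mutant). By −log10 q, the strongest region of all 10 windows with a WT and no mutant peak was in Unc5c too (chr3:141814827-141815152), with a pileup of 29 in WT and 34 in het. Both thus lay nearer to the start site of Unc5c than to that of Bmpr1b.

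The region higher in mutant was in a Bmpr2 intron (chr1:59833806-59833991), 70.5 kb from the start site, with a pileup of 10 in WT, 21 in mutant and no het peak. Its ratio of 2.07 (0.93 to 4.93) was the largest of the 126 shared regions, from few tags. Bmpr1b also held the mutant region without a WT peak that was strongest by −log10 q (chr3:142043587), with a pileup of 20 in mutant and no het peak. At Bmpr1a 2 regions fell just short of 1.5 times lower, an intronic one at chr14:34459001 with a pileup of 26 in WT and 18 in mutant, and 1 in the neighbouring transcript 9230112D13Rik at chr14:34514228 with 19 and 13. At Bmpr1a an intronic region 36.8 kb from the start site had a pileup of 13 in WT and no peak in het or mutant.

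Smad1 and Smad5 carry the BMP signal to the nucleus. Smad1 (chr8:79338395-79399518, minus strand) had the highest first start site of the 10 genes, with a pileup of 67 in WT, 108 in het and 76 in mutant, a ratio of 1.12 (0.80 to 1.58). At a second start site the pileup was 46 in WT, 84 in het and 64 in mutant, a ratio of 1.37 (0.93 to 2.05), and at the third it was 15, 22 and 15. The start-site region of Smad5 (chr13:56703010-56742377, plus strand) had a pileup of 39 in WT, 49 in het and 37 in mutant, a ratio of 0.94 (0.58 to 1.51). None of the 26 shared Smad regions was 1.5 times lower in mutant, where 3.61% of all shared regions were.

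In all, 2 of the 26 were at least 1.5 times higher in mutant, or 7.69%, against 7.48% of all shared regions. The first was in a Smad1 intron (chr8:79381837) with a pileup of 15 in WT, 29 in het and 23 in mutant, a ratio of 1.51 (0.76 to 3.12). The other lay in the Smad5 window within the calcium channel gene Trpc7 (chr13:56774348), with a pileup of 13 in WT and 21 in mutant, a ratio of 1.60 (0.76 to 3.47). Both intervals include 1. The Smad1 window had the highest median log2 ratio of the 10 genes, 0.21 over 16 shared regions. All 10 WT regions of the Smad5 window had a mutant peak, where 20.4% of all WT regions had none.

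**Figure D4:**
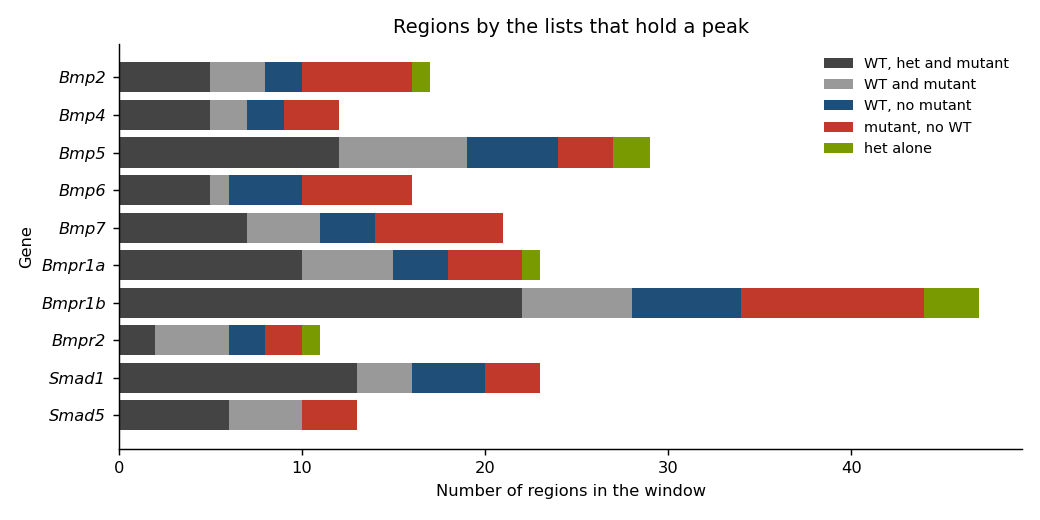
Number of regions in the window of each gene, split by the lists that hold a peak. Grey parts are shared by WT and mutant, dark grey in all 3 genotypes, blue and red parts lack a mutant or a WT peak, with or without a het peak, and green is het alone. Bmpr1b has the most regions, 47. Of the 10 WT regions of Smad5 none lacks a mutant peak, where 20.4% of all WT regions do.

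In 4 windows the strongest WT region was the start site or flank of a neighbour rather than part of the listed gene. These were Fam117b in the Bmpr2 window, with a pileup of 100 in WT, 152 in het and 97 in mutant, Mmaa in the Smad1 window, with 91, 134 and 87, Txndc5 in the Bmp6 window, with 59, 92 and 65, and a site near Spo11 in the Bmp7 window, with 53, 74 and 53. Their ratios lay between 0.94 and 1.09. Strong sites in these windows thus had similar heights in both genotypes.

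Het peaks were present at 93 of the 157 WT regions of the 10 genes, or 59.2% (51.4 to 66.6), against 64.5% of all WT regions. A het peak was found at 6 of the 31 WT regions that lacked a mutant peak, or 19.4% (9.19 to 36.3), and at 11 of the 47 mutant regions that lacked a WT peak, or 23.4% (13.6 to 37.2), where the genome gave 11.1% and 13.1%. The first of these intervals includes the genome value and the second lies just above it. Het had the lowest depth, and 8 of the 212 regions had a het peak alone.

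The other genes of the pathway were read from a list of 36 ligands, receptors, Smads, secreted inhibitors and binding proteins, co-receptors and targets, with 535 regions. Of their 420 WT regions 53 had no mutant peak, or 12.6% (9.78 to 16.1), below the 20.4% of the genome. Of 367 shared regions, 5 were at least 1.5 times lower in mutant, or 1.36% (0.583 to 3.15), and 29 at least 1.5 times higher, or 7.90% (5.56 to 11.1). Over the genome 3.61% were lower and 7.48% higher, so the higher share was near the background and the lower share below it. By gene, 4 had a lower region, 21 a higher one and 15 neither. Gene windows with such regions were not counted over the genome, where higher calls also outnumbered lower ones. These gene counts therefore have no background and are not read as a result. Start-site regions made up 20.0% of the 535, against 12.3% of all regions.

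Of the target genes, which answer to BMP signals in many tissues, 8 of 70 shared regions were at least 1.5 times higher, or 11.4% (5.91 to 21), an interval that holds the 7.48% of all shared regions, and 1 was lower. Their median log2 ratio was 0.18, against 0.07 over the genome. Regions picked from the 8 after their values were seen lay in the windows of Msx2, Msx1 and Id2. They were 17.8 kb downstream, 35.9 kb upstream and 9.95 kb downstream of the start sites. The Msx1 one lay nearer to the start site of Gm20052. Pileups in WT, het and mutant were 8, 15 and 21 at Msx2, 17, 26 and 35 at Msx1, and 14, 17 and 28 at Id2. The lowest pileup of any WT peak was 7. Msx1, Msx2 and Id2 encode transcriptional regulators. The ratios were 2.59 (1.10 to 6.77), 2.03 (1.11 to 3.87) and 1.98 (1.01 to 4.06), with intervals that just exclude 1. Because the regions were picked after their values were seen, these intervals are not independent evidence.

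The highest of the 8 was a region 5.38 kb downstream of the start site of Atoh1, the transcription factor gene that specifies granule cells (chr6:64733650-64735281). Its pileup was 72 in WT, 218 in het and 121 in mutant, its ratio 1.66 (1.23 to 2.25), and its rank 91.4 in WT, 99.8 in het and 99.0 in mutant. Both genotypes ranked higher than WT carry the Atoh1-Cre transgene, so copies of Atoh1 sequence in that transgene and a more open site at Atoh1 cannot be told apart. By fold enrichment over the local background the log2 ratio at this region was only 0.26.

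In the remaining groups the counts are read against the same 7.48% higher and 3.61% lower of all shared regions, and each group is small. Of the inhibitors, 6 of 84 shared regions were at least 1.5 times higher, or 7.14%, and 1 lower. The lower one was in an intron of Bmper, which encodes a BMP-binding protein, with a pileup of 16 in WT and 9 in mutant. Its ratio was 0.56 (0.22 to 1.33), whose interval includes 1, and the Bmper window also held 3 of the higher ones. Of the ligands outside the main list, 5 of 88 were higher and 1 lower. The Gdf10 window held 2 of the higher ones, 1 of them in an intron of Rbp3, and also the lower one. That lower region lay at the start site of Zfp488, with a pileup of 29 in WT and 18 in mutant. The start site of Gdf10, which also marks Bergmann glia, had pileups of 17 (WT), 35 (het) and 26 (mutant). The other 2 astrocyte and Bergmann glia markers, Gfap and Aqp4, ranked at 57.5 and 44.5 in WT and at 59.4 and 79.1 in mutant. Of the oligodendrocyte lineage markers, Olig2 and Mbp ranked lower in mutant, at 70.5 against 74.5 and 60.3 against 64.0. Olig1 ranked higher, at 83.6 against 80.6. Of the GNP markers, Barhl1 and Neurod1 ranked lower in mutant, at 63.6 against 75.3 and 90.7 against 91.9. Pax6 and Atoh1 ranked higher, at 87.2 against 79.2 and 93.8 against 88, as did Zic1, Gli1 and Mycn. The part of glial chromatin in the Gdf10 value was not tested. The Smads of this list had 6 higher and 2 lower of 44. Both lower ones were in the window of Smad6, an inhibitory Smad, which also held 2 of the higher ones. The receptors had 1 higher and 0 lower of 53. The co-receptors Rgma and Rgmb had 3 higher and 0 lower of 28.

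**Figure D5:**
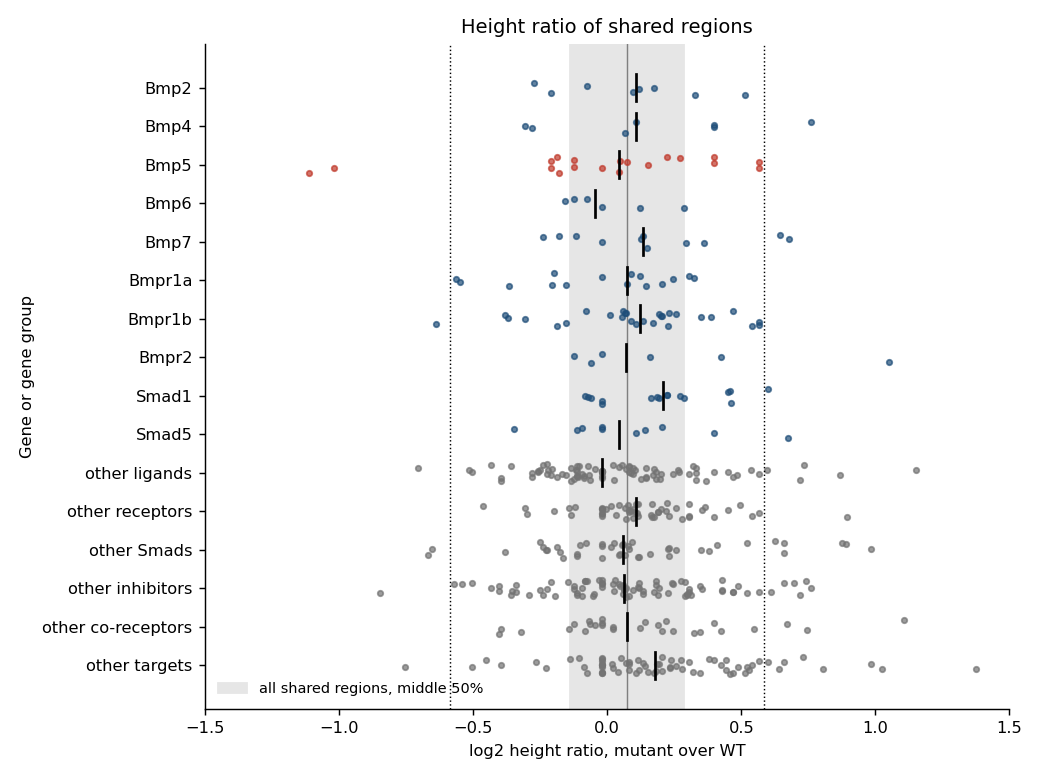
Log2 height ratio, mutant over WT, of every shared region of the 10 genes and of the 6 groups of other pathway genes; each point is a region, with the vertical scatter added for legibility, and black bars are medians. The shaded band holds the middle 50% of all shared regions, from -0.14 to 0.29, the grey line their median of 0.07, and dotted lines mark 1.5 times; the 2 Bmp5 points at -1.02 and -1.11 lie to the left of every other point.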

How the data were processed

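ATAC-seq was done on P7 GNPs of 3 WT, 2 het and 3 mutant libraries, grouped by the genotype in the labels. The authors pooled the libraries of each genotype and called peaks with MACS2 (2.1.0.20150731) at a q cutoff of 0.05 without a control; the labels also name Trim Galore (0.4.1), STAR (2.5.0b) and Picard (1.139), build mm10. Per the file headers, WT and mutant came from STAR alignments with modelled fragment lengths of 90 and 88 bp, and het from bowtie alignments with a shift and a fixed length of 200 bp. Tag size was 107 bp in WT and het and 76 bp in mutant. In the heights and missing peaks of WT and mutant, effects of tag size and of genotype therefore cannot be told apart. The deposited lists hold, for each peak, a summit pileup (signal, in tags), a fold enrichment ratio over local background, and −log10 p and q values. They hold no value of a single library.

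From these, peaks of the 3 lists within 300 bp were joined into regions and assigned to gene windows (GENCODE M21, body plus 50 kb) with Python (3.11.15), pandas (2.3.3) and SciPy (1.17.1). Height was the largest pileup of a list in a region per 1000000 tags after filtering. A region was called lower or higher at 1.5 times. Shares have Wilson intervals and height ratios exact conditional binomial intervals, at 95%. A position that is printed alone is a region's start. The deposited peaks stayed within the chromosome ends of GRCm38 for all 21 chromosomes compared. On simulated data the method was run only with planted changes of 3 times and with pileups higher than those observed. Changes of 1.5 times and missing peaks were not simulated. The members, gene lists, motifs and settings were chosen with earlier results of these data known. The text names, by rule, the start-site regions of all 10 genes and every Bmp5 gene body region. Among regions with a −log10 q of 5 or more, it names the 5 largest falls and the 5 largest rises of shared ones. From the same regions it names the 3 strongest with a WT and no mutant peak, and the 3 strongest with the reverse. A het peak was allowed at these. Called and strongest regions outside this rule were chosen after their values were seen. Alternatives were overlap in place of joining, a −log10 q of at least 5, the gene body alone, fold enrichment, centred heights, a call at 2 times and single peaks.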

Additional observations from a re-analysis of the deposited data

How the results depend on the processing

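Of 47 recomputed shares, 38 stayed within the counting interval of the reported value, and the log2 ratios of the 10 named regions kept their direction in 35 of 35 alternatives. With only peaks of −log10 q of 5 or more, WT regions of the 10 genes without a mutant peak fell to 10.6%, against 12.8% over the genome. Mutant regions without a WT peak came to 31.7% (24.1 to 40.4), within the interval of the reported 27.2% (21.1 to 34.2). The genome value at that setting, 23.2%, lay below the interval of 24.1 to 40.4. WT regions with a het peak rose to 79.8%, against 78.0% over the genome. Bmp5 regions lower in mutant came to 0% (0 of 11), against 2.46% of shared regions over the genome. The mutant peaks of both intron 1 regions have −log10 q values of 4.08 and 3.34, so they were not kept. For the other pathway genes that setting gave 0.364% lower and 5.45% higher, against 2.46% and 4.78% over the genome. A call at 2 times gave 0.794% higher for the 10 genes, against 0.726% over the genome. For the other pathway genes it gave 0% lower and 1.09% higher, against 0.402% and 0.726% over the genome. Fold enrichment gave 4.90% higher for the other pathway genes, against 5.66% over the genome. The cause was not tested. On fold enrichment the log2 ratios of the Bmp5 intron 1 regions were -0.59 and -0.78, both still past 1.5 times.

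No paired analysis was possible because each list pools its libraries. No replicate was left out, since no list holds 1 library. Depth limits single regions: pileups of 7 to 20 tags leave intervals that span more than a doubling.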
